A study of Mus musculus with 4 samples.

Results

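The 83 genes described here encode histones, the proteins around which DNA is wound. They were taken by symbol from a table of 44788 genes measured by RNA sequencing in mouse bone marrow stromal cells (BMSCs), adherent cells of the marrow that can form bone and fat. Of these, 70 carry a symbol of the Hist gene clusters and are called replication-dependent. The other 13 are variant genes, with symbols that start with H2af or with the symbols H3f3a and H3f3b. The KO group was Setd2 fl/fl cells of strain C57BL/6J given a lentivirus with Cre recombinase, and the WT group was the same Setd2 fl/fl cells given a lentivirus with GFP. Both groups thus carried the floxed alleles and a virus, both had been passaged 2 times, and both were kept in puromycin at 2 µg/ml for 4 days. Each group had 2 libraries, and the labels do not say whether these came from separate cultures or animals, so p-values measure only the spread between libraries, which may be technical. No library of cells with Cre but without loxP sites was analysed here, so an effect of Cre and of Setd2 loss cannot be told apart.

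Core histones H2A, H2B, H3 and H4 form the nucleosome, and linker histones H1 bind where DNA enters and leaves it. Replication-dependent genes lie in clusters, mostly lack introns and are transcribed mainly in S phase, when new DNA has to be packed. Their messenger RNAs usually end in a short stem-loop that is bound by Slbp and cut by a complex with the U7 small nuclear RNA, in place of a poly(A) tail. Variant genes mostly lie outside these clusters, are expressed outside S phase as well, usually have introns, and their messenger RNAs are mostly polyadenylated. Setd2 is the enzyme that trimethylates lysine 36 of histone H3 behind RNA polymerase II. The libraries were made with a kit whose standard protocol selects polyadenylated RNA, so a histone transcript with only a stem-loop is not what it selects for.

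The stem-loop served to separate the 2 kinds of transcript end. An exact copy, taken as 16 bases that form 6 base pairs around a loop of 4 bases in the pattern of histone messenger RNAs, stood in the GENCODE M21 transcripts of 45 of the 70 replication-dependent genes. Over all annotated genes it stood in 74 of 55341 (0.134%). It occurred in 8 forms, and 25 of the 45 genes shared the form shown for Hist1h1c. The stretches below show it in capitals, with 5 bases before and 9 after it, 5′ to 3′ on the transcript's strand. They were picked to show transcripts that end soon after it and transcripts that run on, and belong to 7 replication-dependent genes and the variant gene H2afx.
Hist1h1c: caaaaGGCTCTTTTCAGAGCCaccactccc
Hist3h2a: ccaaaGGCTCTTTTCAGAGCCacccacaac
Hist1h2be: ccaaaGGCTCTTTTCAGAGCCacccaacag
Hist1h4i: ttaaaGGCCCTTTTTAGGGCCaccacaaaa
Hist1h4h: ccaaaGGCCCTTTTCAGGGCCgcccacatt
Hist1h2bj: ccaaaGGCTCTTTTCAGAGCCacgcacaat
Hist1h4a: ccaaaGGCCCTTCTCAGGGCCgcccacatt
H2afx: acaaaGGCCCTTTTAAGGGCCaccacctcc
In Hist1h1c, Hist3h2a, Hist1h2be and Hist1h4i the annotated transcript ran on past the stem-loop for 840, 1643, 1861 and 330 bases, and each had a poly(A) signal, AATAAA or ATTAAA, in its last 50 bases. In Hist1h4h and Hist1h2bj it ended 46 and 23 bases after the stem-loop, and in Hist1h4a 108 bases after it. Hist1h4h and Hist1h4a also had a poly(A) signal in their last 50 bases, and Hist1h2bj had none. H2afx ran on for 822 bases and was the variant gene, of the 11 with an annotated transcript, in which the stem-loop was found.

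The library totals were 14311924 and 14315903 counts in KO and 12806928 and 12371994 counts in WT. Counts are given below as deposited, and CPM is the count scaled to library size with TMM factors. The floor of 3 counts lay between 0.207 and 0.255 CPM and covers counting error only. Setd2 had 551 and 468 counts in KO and 1400 and 1250 counts in WT, a log2 fold change of -1.60 (edgeR adjusted p = 3.65e-15, and 0.124 without WT replicate 2), in the direction of the labels. One WT library stood apart in a list of ribosomal and other RNAs without a poly(A) tail, which also holds the protein-coding gene Lars2. The 20 genes of this list summed to 15470 and 14196 CPM in KO and to 22962 and 89705 CPM in WT. The high value was in WT replicate 2. Lars2 alone had 1712 and 1816 CPM in KO and 2345 and 9991 CPM in WT. All 13 stromal markers passed the count filter, and 4 rose and 1 fell at an edgeR adjusted p under 0.05. Over all tested genes 3.74% rose and 3.22% fell at this mark. The collagen gene Col1a1 rose by 0.52 on the log2 scale, but 7 of the 13 stromal markers lay below 0. Macrophage markers were present too: all 14 passed the filter, and 5 rose and 1 fell. Among them Mrc1 changed by 0.42 and Emr1 by -0.30 on the log2 scale. The 14 genes summed to 2527 and 2518 CPM in KO and to 2139 and 2204 CPM in WT. Markers of both cell types were thus present, and the part of macrophages in any histone value was not tested. Endothelial markers summed to 7.82 and 7.67 CPM in KO and to 9.97 and 9.62 CPM in WT, with 0 of 4 tested genes called. Of 9 erythroid and lymphoid markers, 6 had 0 counts in all 4 libraries.

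Histone transcripts were a small part of every library, and a few genes made up most of it. Of the 83 genes, 12 had 0 counts in all 4 libraries, 8 of them replication-dependent and 4 variant. A filter on low counts left 30 genes to be tested, 21 replication-dependent and 9 variant. The 49 replication-dependent genes below the filter summed to 87 and 87 counts in KO and to 96 and 95 counts in WT, and none of them had more than 32 counts over the 4 libraries. All 70 replication-dependent genes together reached 215.8 and 214.4 CPM in KO and 208.4 and 189.8 CPM in WT. The 13 variant genes reached 471.4 and 489.8 CPM in KO and 496.3 and 458.1 CPM in WT, so their sum lay above that of the replication-dependent genes in each library. Of all replication-dependent counts, 70.9% came from Hist1h1c, a linker histone gene, and Hist1h2bc, an H2B gene. With Hist3h2a, an H2A gene on another chromosome, the share was 78.8%. By kind of histone, 42.7% of the counts were H1, 36.7% H2B, 10.6% H2A, 5.23% H3 and 4.75% H4. Nucleosomes hold equal amounts of the 4 core histones, and these shares are of counts without correction for transcript length.

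**Figure D1:**
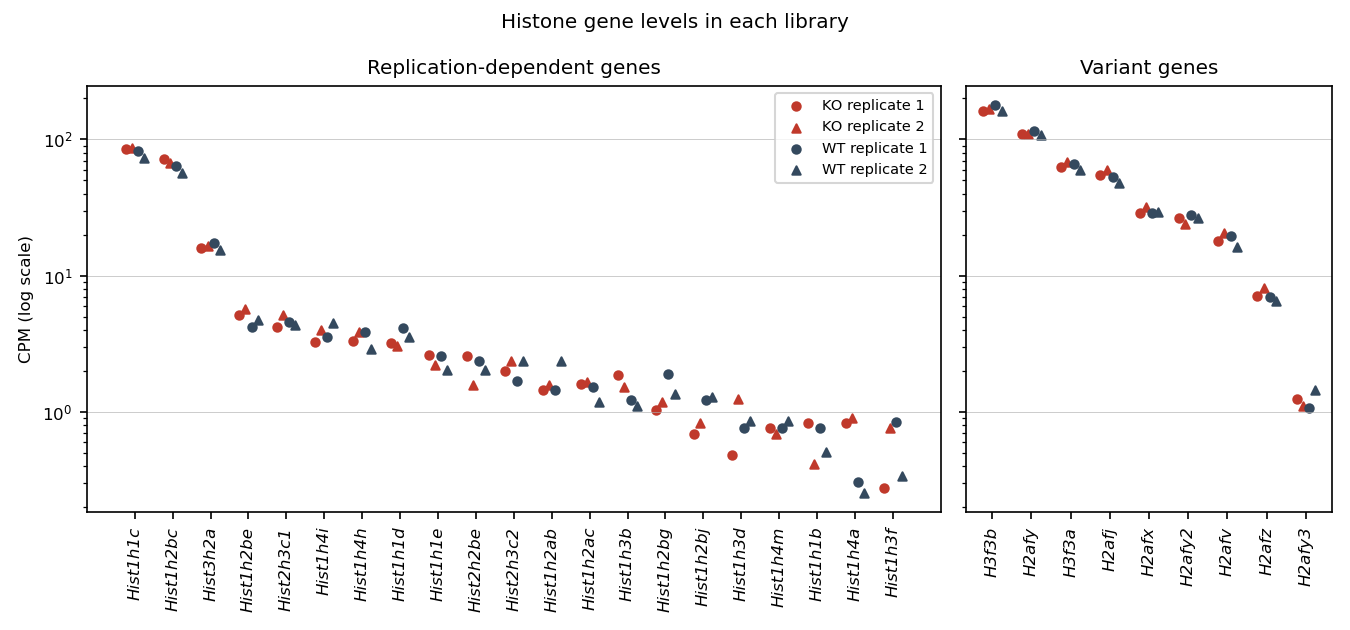
CPM on a log axis for each of the 30 tested histone genes in the 4 libraries, KO in red left of WT in blue, circles for replicate 1 and triangles for replicate 2. Hist1h1c and Hist1h2bc stand far above the other replication-dependent genes, and most genes have overlapping groups.

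Per kilobase of their longest annotated transcript, the variant and the leading replication-dependent genes were at like levels. H3f3b, 1 of the 2 genes of the H3 variant H3.3, had 64.5 and 66.1 CPM per kb in KO and 70.7 and 64.6 CPM per kb in WT. Hist1h2bc had 62.2 and 57.8 CPM per kb in KO and 55.1 and 49.4 CPM per kb in WT, below H3f3b in all 4 libraries. H2afy, a gene of macroH2A, an H2A with a large extra domain, had 53.6 and 53.3 CPM per kb in KO and 56.2 and 53.0 CPM per kb in WT. Hist1h1c had 55.0 and 55.3 CPM per kb in KO and 52.7 and 46.5 CPM per kb in WT. The ranges of Hist1h2bc, H2afy and Hist1h1c overlapped, so their order is within the spread of the libraries. They were followed by H2afj (mean 29.5 CPM per kb over the 4 libraries), H3f3a (22.6) and H2afx (21.4), then by H2afy2 (12.1) and H2afv (11.4). Hist3h2a (7.62), Hist1h4h (7.43) and H2afz (6.69) came next. These levels depend on the transcript chosen for the length.

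Nearly all replication-dependent counts fell on genes with a long annotated 3′ end. Such an end was defined as more than 100 bases past the stem-loop, or past the stop codon where no stem-loop was found. The 28 genes with a long end held 93.3% of the replication-dependent counts, and 15 of them had a poly(A) signal at their end. Hist1h1c, Hist1h2bc and Hist3h2a, which are among the 28, held 78.8%, so most of this share came from 3 genes. All 28 summed to 202.3 and 201.0 CPM in KO and to 193.8 and 175.4 CPM in WT. The 22 genes with an annotated end within 100 bases of the stem-loop held 5.63%, and 1 of them, Hist1h4h, had a poly(A) signal at its end. All 22 summed to 11.3 and 11.5 CPM in KO and to 11.9 and 12.2 CPM in WT. A further 17 genes, annotated to little more than their coding part, held 1.02%, with 2.08 and 1.80 CPM in KO and 2.51 and 2.13 CPM in WT. The remaining 3 genes had no annotated coding part. None of these shares was corrected for transcript length.

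WT replicate 2, which held more ribosomal RNA, was the lowest library in the histone genes with a long end and the highest in those with a short end. Its sum over the list of ribosomal and other RNAs, Lars2 included, was 3.91 times that of WT replicate 1. For histone genes with a short end the ratio was 1.02, on 143 counts in WT replicate 2 and 157 in WT replicate 1. For those with a long end it was 0.905. Hist1h1c, Hist1h2bc and Hist3h2a, all with a long end, together had a ratio of 0.888, and the other 67 replication-dependent genes 0.996. The low value for long ends thus lay in these 3 genes. Variant genes had a ratio of 0.923. The 175.4 CPM of WT replicate 2 for long ends lay further below the next library than the other 3 lay from each other. The 49 genes below the count filter had 6.02 and 6.01 CPM in KO and 7.31 and 8.09 CPM in WT. Here the groups did not overlap, with WT replicate 2 the highest, but each library had under 100 counts over these genes together.

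**Figure D2:**
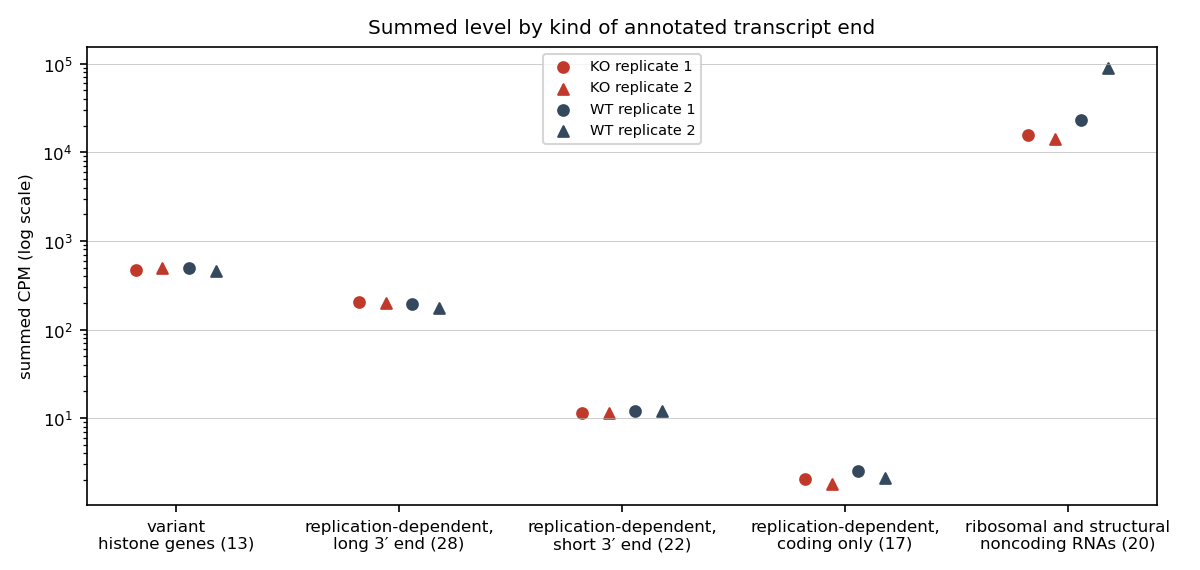
Summed CPM on a log axis, with the number of genes in parentheses. Groups are variant histone genes, replication-dependent genes by their annotated 3′ end, and a list of ribosomal and structural noncoding RNAs. That list also holds the protein-coding gene Lars2. KO libraries are red and left of the blue WT libraries. WT replicate 2 is the highest library in that list, at 89705 CPM, and the lowest in replication-dependent genes with a long end, at 175.4 CPM.

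No histone gene passed the test between KO and WT. With edgeR's quasi-likelihood F-test, adjusted over 14483 genes, 0 of the 30 tested histone genes had an adjusted p under 0.05, while 1009 of all tested genes (6.97%) did. Of all tested genes 3.74% were called higher and 3.22% lower in KO. At an unadjusted p under 0.05 there were 4 histone genes, all higher in KO, where over all genes 20.9% passed this mark, 10.6% as higher. They were Hist1h1c, Hist1h2bc, Hist1h4a and the variant gene H2afj. DESeq2 gave an adjusted p for 11 histone genes and called 0 of them, with 0 at an unadjusted p under 0.05, against 378 of 10658 genes (3.55%) overall. The median log2 fold change was 0.06 for the 21 replication-dependent genes, 11 above and 10 below 0, and 0.06 for the 9 variant genes, 5 above and 4 below 0. Over all tested genes the median was -0.0045. KO and WT did not overlap in 9 of 21 replication-dependent genes, 6 higher and 3 lower in KO, and in 2 of 9 variant genes, both higher in KO. Over all tested genes KO lay apart from WT in 24.5% as higher and in 25.5% as lower. The split of the histone genes by direction, 8 higher and 3 lower of 30, was not tested against this background.

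**Figure D3:**
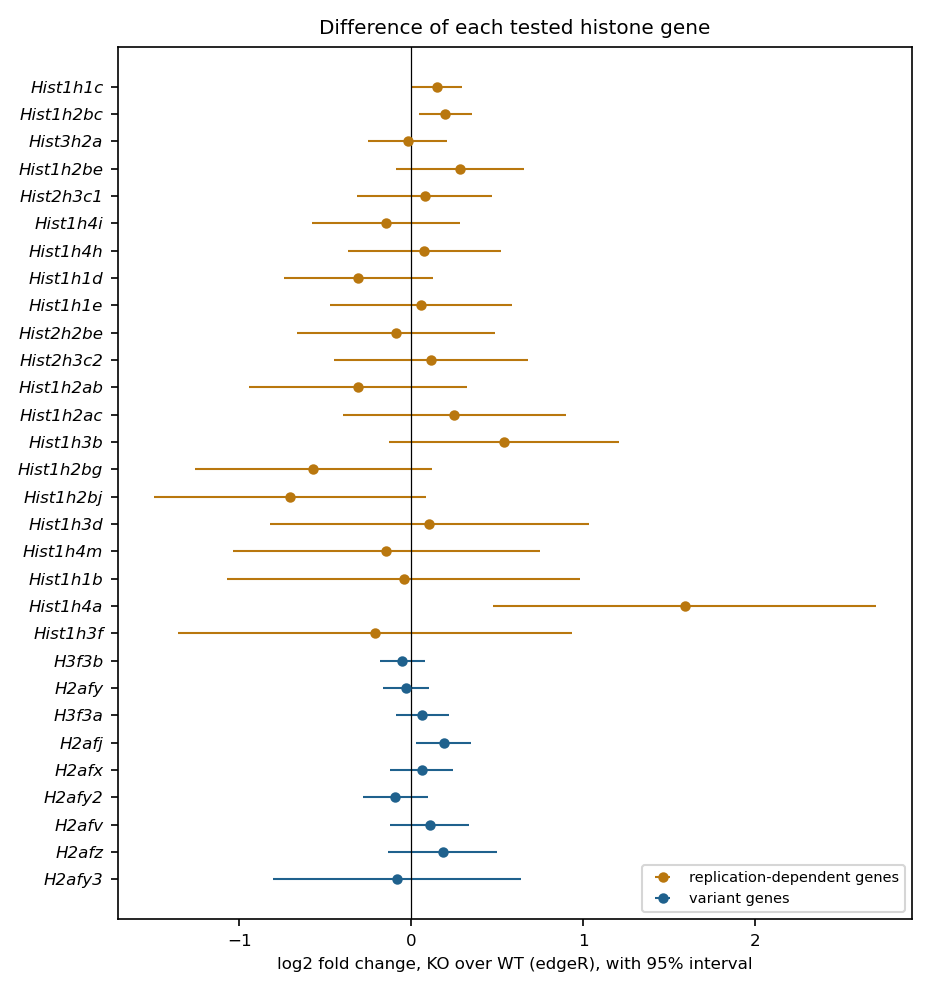
Log2 fold change of KO over WT for the 30 tested histone genes, with points for edgeR's estimate and lines for its 95% interval, in order of mean CPM within replication-dependent (brown) and variant genes (blue). The intervals widen towards genes of low counts, and Hist1h4a lies apart at 1.59 with an interval of 0.48 to 2.70.

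The intervals give the size of change that these libraries leave possible. For the 8 variant genes with a mean of at least 5 CPM, the 95% intervals together ran from -0.28 to 0.50 on the log2 scale. For Hist1h1c, Hist1h2bc and Hist3h2a, the replication-dependent genes above 10 CPM, they ran from -0.25 to 0.35. For the replication-dependent genes under 10 CPM they ran from -1.50 to 2.70, so 2-fold changes lie within the intervals of some genes of that group. The summed level of replication-dependent genes differed by 0.11 on the log2 scale, KO over WT. This was 0.05 without WT replicate 2 and 0.18 without WT replicate 1. Without Hist1h1c, Hist1h2bc and Hist3h2a the other 67 genes summed to 42.2 and 44.7 CPM in KO and to 45.0 and 44.8 CPM in WT. The summed level of variant genes differed by 0.01, by -0.05 without WT replicate 2 and by 0.07 without WT replicate 1.

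Among linker histones, Hist1h1c was highest and H1f0, which is not in the clusters, fell. Hist1h1c lies on chromosome 13 from 23738808 to 23740367 (GRCm38) and had 1239 and 1249 counts in KO and 1080 and 852 counts in WT. This was 86.0 ± 0.408 CPM in KO and 77.4 ± 6.82 CPM in WT (mean ± SD, n = 2 each), and both KO libraries lay above both WT libraries. The log2 fold change was 0.15 with a 95% interval of 0.01 to 0.30, and it did not pass (edgeR adjusted p = 0.216). Without WT replicate 2 it was 0.07, and without WT replicate 1 it was 0.25. Hist1h1d, another clustered linker gene, had 3.18 and 3.04 CPM in KO and 4.11 and 3.58 CPM in WT. It was lower in both KO libraries, with a log2 fold change of -0.31 and an interval of -0.74 to 0.13. Hist1h1e had 2.63 and 2.21 CPM in KO and 2.59 and 2.04 CPM in WT, and Hist1h1b had 0.83 and 0.415 CPM in KO and 0.761 and 0.511 CPM in WT, with overlapping groups in both. Hist1h2be and Gm11398, on the same strand, share 25.7% of the exon bases of Hist1h1e, so its count is uncertain.

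H1f0, the linker histone of cells that divide little, is polyadenylated and lies on chromosome 15 from 79028450 to 79030504. It was examined beside the members from a list of histone genes outside the symbol rule, of which 3 of 8 in the table were tested and 1 was called. Over all tested genes 3.22% were called lower and 3.74% higher in KO. H1f0 had 648 and 633 counts in KO and 808 and 700 counts in WT, or 44.8 and 43.7 CPM in KO and 61.5 and 59.6 CPM in WT. It fell by 0.45 on the log2 scale (standard error 0.07, edgeR adjusted p = 1.63e-04). The adjusted p was 0.219 without WT replicate 1, 0.226 without WT replicate 2 and 0.092 with no filter on low counts. Of the counts on Hist1h1c and H1f0 together, Hist1h1c held 65.7% and 66.4% in KO and 57.2% and 54.9% in WT. The shares did not overlap between groups, and exact permutation of 2 against 2 libraries cannot give a p under 0.333. H1f0 was lower and Hist1h1c higher in both KO libraries, so this separation follows from their values and is no separate result. The other tested genes of that list were H1fx, a further linker histone (log2 fold change 0.29, edgeR adjusted p = 0.266), and Cenpa, the H3 variant of centromeres (-0.33, edgeR adjusted p = 0.060). Cenpa had 16.7 and 14.9 CPM in KO and 20.2 and 19.5 CPM in WT, and with robust dispersion estimates its adjusted p was 0.037.

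**Figure D4:**
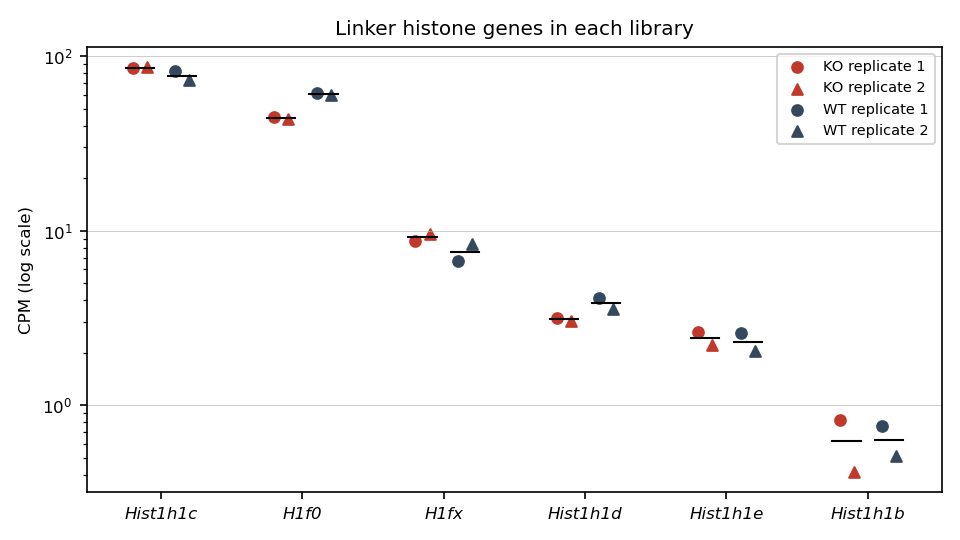
CPM on a log axis of the linker histone genes, KO in red left of WT in blue, with bars at the group means. H1f0 is lower in KO, at 44.8 and 43.7 CPM against 61.5 and 59.6 CPM in WT, and is the gene here that passes the test. Hist1h1c, at 85.7 and 86.3 CPM in KO and 82.2 and 72.6 CPM in WT, does not pass.

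Clustered H2A and H2B genes often lie in pairs that share a promoter region. There were 14 pairs of members that start on opposite strands within 500 bases of each other, with 173 to 306 bases between the starts. In 3 of them the counts reached 100, and in each of these 1 partner held nearly all. Hist1h2bc, on chromosome 13 from 23684199 to 23692908, had 1039 and 967 counts in KO and 837 and 670 counts in WT. Its H2A partner Hist1h2ac, 251 bases away, had 23 and 24 counts in KO and 20 and 14 counts in WT. Hist3h2a, on chromosome 11 from 58954685 to 58956830, had 231 and 239 counts in KO and 230 and 181 counts in WT. Its partner, the annotated H2B pseudogene Hist3h2bb-ps at 173 bases, had 1 and 2 counts in KO and 1 and 1 counts in WT. Hist2h2be, an H2B gene, had 37 and 23 counts in KO and 31 and 24 counts in WT, and its H2A partner Hist2h2ac had 0 and 0 counts in KO and 1 and 3 counts in WT. In these 3 pairs the same partner was the higher one in all 4 libraries. Other pairs with counts had lower totals, and that of Hist1h2ag and Hist1h2bj was unequal too. Hist1h2ae had 25 and its H2B partner Hist1h2bg 73 counts over the 4 libraries. Hist1h2bf had 12 and its H2A partner Hist1h2ad 21, and Hist1h2ag had 2 and its H2B partner Hist1h2bj 53. The remaining 8 pairs had at most 19 counts each. These are counts of retained transcripts and not a measure of promoter activity. The annotated transcripts of Hist1h2bc and Hist2h2be had no exact stem-loop, that of Hist1h2bc being spliced from 2 exons with 742 bases after the stop codon.

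The stretches below show the RefSeq promoters (GRCm38.p6, from 250 bases before to 50 after the start) of Hist1h2ac, whose window spans the interval it shares with Hist1h2bc, and of Hist3h2a. Capitals mark 3 motifs on either strand: the CCAAT box, the TATAAA box and the octamer ATTTGCAT. The first is chr13:23683910-23684209 on the minus strand and the second is chr11:58954435-58954734 on the plus strand.
Hist1h2ac: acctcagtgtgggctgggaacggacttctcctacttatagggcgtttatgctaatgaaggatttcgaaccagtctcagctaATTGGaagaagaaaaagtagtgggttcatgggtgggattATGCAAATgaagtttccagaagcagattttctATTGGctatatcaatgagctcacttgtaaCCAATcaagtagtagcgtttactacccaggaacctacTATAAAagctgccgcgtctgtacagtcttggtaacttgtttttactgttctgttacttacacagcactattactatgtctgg
Hist3h2a: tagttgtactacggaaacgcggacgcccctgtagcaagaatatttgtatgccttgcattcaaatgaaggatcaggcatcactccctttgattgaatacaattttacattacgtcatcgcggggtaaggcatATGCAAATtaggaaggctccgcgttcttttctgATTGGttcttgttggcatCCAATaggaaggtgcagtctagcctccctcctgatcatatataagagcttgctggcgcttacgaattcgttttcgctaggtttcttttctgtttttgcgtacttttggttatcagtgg
CCAAT is bound by NF-Y, TATAAA is the box bound by the TATA-binding protein, and the octamer is bound by Oct factors and is known from H2B promoters. Searched on both strands, the octamer stood in 22.2% of 63 replication-dependent, 11.1% of 9 variant and 1.7% of all 32851 promoters of this length. TATAAA stood in 55.6% of the replication-dependent, 11.1% of the variant and 13.6% of all promoters. CCAAT stood in 85.7% of the replication-dependent, 88.9% of the variant and 37.4% of all promoters. Many members have near-identical copies, so these promoters are not independent, and a match is a description of letters.

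Hist1h2bc was the H2B gene with the highest level. It had 69.4 ± 3.59 CPM in KO and 60.4 ± 4.70 CPM in WT (SD, n = 2 each), and both KO libraries lay above both WT libraries. Its log2 fold change was 0.20 with an interval of 0.05 to 0.35, and it did not pass (edgeR adjusted p = 0.109). Without WT replicate 2 it was 0.12, and without WT replicate 1 it was 0.28. Of its 50-base words 69.4% occur in no other annotated gene, and 23.1% also stand in Hist1h2bg. Hist1h2be, a further H2B gene with a long transcript, had 75 and 82 counts in KO and 55 and 56 counts in WT. Its log2 fold change was 0.28 with an interval of -0.09 to 0.65, again with groups that did not overlap. Hist1h1e and Gm11398, on the same strand, share 11.2% of the exon bases of Hist1h2be, so its count is uncertain. Hist1h2bj had 10 and 12 counts in KO and 16 and 15 counts in WT (log2 fold change -0.71, interval -1.50 to 0.09), and Hist1h2bg had 15 and 17 counts in KO and 25 and 16 counts in WT (-0.57, interval -1.26 to 0.12). These last 2 were chosen after their values were seen, as the largest negative differences. H2B genes thus lay on both sides of 0. Hist3h2a stood at 16.3 ± 0.376 CPM in KO and 16.5 ± 1.48 CPM in WT, a log2 fold change of -0.02 with an interval of -0.25 to 0.21. Other genes, among them Trim17 on the same strand, share 33.0% of its exon bases, so its count is uncertain.

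Clustered H3 and H4 genes were low throughout. Hist2h3c1, an H3 gene, had 4.22 and 5.18 CPM in KO and 4.57 and 4.34 CPM in WT (log2 fold change 0.08, interval -0.31 to 0.47). All its transcript sequence also lies in the annotated gene Gm20634, so its count is uncertain. The H4 gene Hist1h4i had 3.25 and 4.01 CPM in KO and 3.58 and 4.51 CPM in WT, and Hist1h4h had 3.32 and 3.87 CPM in KO and 3.88 and 2.90 CPM in WT. Groups overlapped in all 3 genes. Hist1h3b, an H3 gene with a short end, had 27 and 22 counts in KO and 16 and 13 counts in WT, a log2 fold change of 0.54 with an interval of -0.13 to 1.21. Hist1h4a, a further H4 gene on chromosome 13 from 23760692 to 23761230, had the largest difference of the tested histone genes. It had 12 and 13 counts in KO and 4 and 3 counts in WT, or 0.83 and 0.898 CPM in KO and 0.304 and 0.256 CPM in WT. The groups did not overlap, but both WT libraries were near the floor of 3 counts. The log2 fold change was 1.59 with an interval of 0.48 to 2.70, and it did not pass (edgeR adjusted p = 0.074). Of the 50-base words of its transcript, 59.6% occur in no other annotated gene, so reads from other H4 genes cannot be set aside. Hist1h3b and Hist1h4a were named after their values were seen.

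Most H3 transcripts that were counted came from the H3.3 genes. Per kilobase, H3f3a and H3f3b made up 89.7% and 88.2% of the summed level of H3.3 and clustered H3 genes in KO and 90.2% and 90.1% in WT. This is a share of what the libraries retained, and any loss of transcripts without a poly(A) tail was not measured. Of their 50-base words, 91.6% in H3f3b and 69.7% in H3f3a occur in no other annotated gene. Among clustered H3 genes this ran from 0.0% in Hist2h3c1 and Hist2h3b to 75.2% in Hist1h3d. How reads with several matches were counted is not known, and its effect on the H3.3 share was not tested. H3.3 is the H3 that is placed into chromatin outside replication, at active genes by the chaperone Hira and at telomeres by Daxx and Atrx. H3f3b, on chromosome 11 from 116021912 to 116027962, had 2342 and 2406 counts in KO and 2337 and 1908 counts in WT. Its level was 164 ± 2.97 CPM in KO and 170 ± 10.9 CPM in WT, with a log2 fold change of -0.05 and an interval of -0.18 to 0.08. H3f3a, on chromosome 1 from 180800832 to 180813943, had 903 and 994 counts in KO and 866 and 699 counts in WT (log2 fold change 0.06, interval -0.09 to 0.22). Groups overlapped in both genes. Antisense genes, Gm17275 and H3f3aos, share 22.8% of the exon bases of H3f3a, and the strand setting of the counting is not known, so its count is uncertain.

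No variant of H2A passed the test. H2afy and H2afy2, the macroH2A genes, had 109.6 and 109.1 CPM in KO and 114.9 and 108.5 CPM in WT for H2afy, and 26.7 and 24.1 CPM in KO and 27.8 and 26.3 CPM in WT for H2afy2. Their log2 fold changes were -0.03 (interval -0.16 to 0.10) and -0.09 (interval -0.28 to 0.10). H2afj, an H2A gene expressed outside S phase and linked to senescence in human fibroblasts, had 798 and 869 counts in KO and 700 and 562 counts in WT. This was 57.6 ± 3.42 CPM in KO and 50.6 ± 3.83 CPM in WT (SD, n = 2 each), without overlap of the groups. Its log2 fold change of 0.19, with an interval of 0.03 to 0.35, did not pass (edgeR adjusted p = 0.153). It was 0.12 without WT replicate 2 and 0.27 without WT replicate 1.

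H2afx, whose phosphorylated protein marks DNA breaks, had 28.8 and 31.8 CPM in KO and 29.0 and 29.1 CPM in WT (log2 fold change 0.06, interval -0.12 to 0.24). The pair of H2A.Z genes, whose product flanks transcription start sites, differed in level. H2afv had 18.1 and 20.7 CPM in KO and 19.6 and 16.4 CPM in WT (log2 fold change 0.11), and H2afz had 7.13 and 8.09 CPM in KO and 6.93 and 6.47 CPM in WT (0.18, interval -0.14 to 0.50). The level of H2afz is uncertain, because 30.4% of its 50-base words occur in no other gene and 60.8% also stand in an annotated transcript of Tmcc1. H2afy3, annotated as a processed pseudogene, had 18 and 16 counts in KO and 14 and 17 counts in WT. The other 4 variant genes, H2afb1, H2af-ps, H2afb2-ps and H2afb3-ps, had 0 counts in every library.

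The genes that make, carry and use histones were followed from lists. Of 27 genes of histone messenger RNA 3′ processing 0 were called, with a median log2 fold change of -0.01. Slbp, which binds the stem-loop, had 24.2 and 24.9 CPM in KO and 26.4 and 20.3 CPM in WT. Npat, the activator of clustered histone genes, had 31.1 and 28.8 CPM in KO and 33.3 and 32.8 CPM in WT, a log2 fold change of -0.14 that did not pass (edgeR adjusted p = 0.362). Of 28 histone chaperone and exchange genes 2 fell, Dek (-0.30), a chaperone of H3.3, and Ep400 (-0.23), a remodeller that places H2A.Z, and the median was -0.12. Of 32 genes of S phase and replication 1 fell, Pole (-0.40), the catalytic subunit of DNA polymerase epsilon, with a median of -0.11. Of 25 genes of mitosis 16 fell, among them Cenpf (-0.68) and Hmmr (-0.48), and the median was -0.30, beside 3.22% of all tested genes that fell. These are edgeR calls. DESeq2 called 5 of the 25 mitosis genes, 0 of the 28 chaperone and exchange genes and 0 of 30 S phase genes with an adjusted p. Summed, the S phase genes had 1174 and 1182 CPM in KO and 1219 and 1253 CPM in WT, and the mitosis genes had 874.2 and 836.6 CPM in KO and 1049 and 1085 CPM in WT. In bulk libraries, fewer cells in a phase and less RNA per cell cannot be told apart. A fit with 1 WT library cannot tell dependence of these calls on the left-out library from the loss of replication. Setd2 had a log2 fold change of -1.59 without WT replicate 2 and of -1.60 with all libraries.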

How the data were processed

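RNA sequencing libraries were made with the Illumina TruSeq RNA kit from 1 µg of total RNA, per the labels' protocols. The submitters' processing notes name the aligner HISAT2 and the build GRCm38. The authors deposited whole-number counts per gene for 4 libraries. How these counts were made (annotation, counting program, strand setting, reads with several matches) is not given in the sources used here. Members with near-identical copies are therefore uncertain: 6 of the 21 tested replication-dependent genes have under 50% of their 50-base words to themselves.

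Counts were tested with edgeR 4.0.16 in R 4.3.3: filterByExpr (minimum count 10, minimum total 15), TMM factors, the quasi-likelihood F-test on a model of group alone, and Benjamini-Hochberg adjustment over 14483 genes at 0.05. The common biological coefficient of variation was 4.73%. The 95% intervals of log2 fold changes come from the same fit. Replicates differed by more than counting noise, with a median chi-square 1.94 times noise in KO and 2.59 times in WT. Same-numbered libraries did not deviate together (correlation -0.05 over 8308 genes). With 2 libraries per group this cannot decide whether libraries of the same number share a culture or animal.

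Transcript ends, lengths and shared words come from the longest transcript of each gene in GENCODE M21 (GRCm38), found for 81 of 83 members. RefSeq promoters (GRCm38.p6) were used for 71, and 1 (H2afb1) was left out because its gene number in the table and its symbol point to different loci. Described in full were the 10 replication-dependent and the 8 variant genes with the highest mean CPM, and up to 4 called genes of each list. Members, lists and the 100-base limit for transcript ends were chosen with earlier results of these data known. Alternatives were DESeq2 1.42.0, other scalings, no filter, robust dispersion, a replicate block, leaving out the list with ribosomal RNAs, and leaving out each library.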

Additional observations from a re-analysis of the deposited data

How the results depend on the processing

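The count of called histone genes was 0 under all 11 alternatives tried, for replication-dependent and variant genes alike, and the smallest adjusted p of a described histone gene was 0.0656, for Hist1h4a with robust dispersion estimates. The number of calls over all genes was 1009, and it was 530 with library size alone, 378 with DESeq2 and 30 with no low-count filter. Leaving out a library gave 0 to 516 calls, with 0 without WT replicate 2 (2197 genes at an unadjusted p under 0.05), 12 without WT replicate 1, 516 without KO replicate 1 and 373 without KO replicate 2. When a library is left out, the lone library of its group is assumed to vary like the other group. With the replicate number as a block 829 genes and 0 histone genes were called. Of the 19 histone genes followed through all alternatives, 8 kept their sign. Hist3h2a was 0.0094 with library size alone. The others changed sign when a library was left out: Hist3h2a ranged from -0.11 to 0.077, Hist2h3c1 from -0.079 to 0.22, Hist1h4i from -0.31 to 0.023, Hist1h4h from -0.11 to 0.31, Hist1h1e from -0.094 to 0.24, Hist2h2be from -0.47 to 0.21, H3f3b from -0.11 to 0.015, H2afy from -0.070 to 0.012, H3f3a from -0.0066 to 0.14, H2afx from -0.013 to 0.14 and H2afv from -0.010 to 0.25. The summed level of replication-dependent genes ranged from 0.05 to 0.18 and that of variant genes from -0.05 to 0.07. Differences of these sizes are within the spread of the libraries, and depth limits the genes under 10 CPM.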
